A study of Arabidopsis thaliana with 6 samples.

Results

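The 9 plastid genes clpP, matK, rpl20, rps18, rpl33, rps4, rps15, rps16 and rpl32 were compared between wild-type Arabidopsis thaliana and albino msh1 mutants. They were chosen by name as genes of the plastid chromosome outside the large ribosomal protein cluster, and each was required to have a probe set that the array annotation gives to a single gene. All 9 had exactly 1 such probe set, out of 69 protein-coding plastid genes measured in this way and 22746 probe sets tested. The array values took no part in the choice, but results of these data were known when it was made.

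The wild-type group (line "wild type") and the mutant group (line "msh1 albino mutant") each had 3 arrays, every one from the aerial part of a 4-week-old plant and labelled as a biological replicate. Plants of both groups were raised on MS medium with added sucrose under alternating light and dark. MSH1, encoded in the nucleus, is a homolog of the bacterial mismatch repair protein MutS; it works in plastids and mitochondria and restrains recombination of their DNA. The labels give neither the msh1 allele nor the ecotype, and every mutant array came from albino plants, so genotype and albino state cannot be told apart.

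Plastid genes are read by a bacterial-type polymerase, whose core subunits are themselves plastid genes (rpoA, rpoB, rpoC1 and rpoC2), and by a phage-type polymerase imported from the cytosol. Photosynthesis genes depend mainly on the bacterial type, while many housekeeping genes can also be read by the phage type. The genes described here are housekeeping genes. clpP codes for the plastid-encoded proteolytic subunit of the Clp protease, matK for an intron maturase that lies inside the intron of the lysine tRNA gene, and the others for proteins of the small (rps) or large (rpl) subunit of the plastid ribosome.

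The values are log2 probe-set summaries from RMA, so 1 unit is a 2-fold difference. Pairs of arrays within a group had a Pearson r of 0.989 to 0.995 over all probe sets, and pairs from both groups 0.969 to 0.985; these values run across probe sets, which are no independent replicates. Of 10 markers fixed for green aerial tissue 7 were measured. LHCB4.1, LHCB4.2, RCA, PRK, SBPASE and STOMAGEN, 6 in all, fell in the albino group by 0.48 to 1.08 on the log2 scale. FMA did not pass (0.001), and over all probe sets 7.44% were called lower. The 2 measured of 10 root markers lay between 3.51 and 4.28 in all arrays, and neither passed the test (at an unadjusted p of 0.05, 0 passed as well). In bulk tissue, fewer plastids or plastid genomes and less RNA from each cannot be told apart. Plastid transcripts also lack the stable poly(A) tails of nuclear mRNA, and how evenly the labelling captured them was not tested.

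By limma with Benjamini-Hochberg adjustment over all probe sets and a threshold of 0.05, 2 of the 9 genes rose in the albino tissue (rpl20 and rps15), 1 fell (rpl33) and 6 did not pass. Over all probe sets 11.2% passed, with 3.75% higher and 7.44% lower. The split of these calls depended on scaling: lower calls made up 66.5% of them as deposited, 23.6% with reference genes aligned, 45.4% with cyclic loess, 45.7% with the 75th percentile aligned, 49.6% with spiked controls aligned and 52.2% when quantile normalization was applied again. With the reference genes aligned, the median over all probe sets shifted upward by 0.20. The median difference of the 9 genes was -0.12, against -0.37 for the 60 other plastid genes and -0.04 for all probe sets. Of those 60 other plastid genes 4 rose and 20 fell, and their differences ran from -3.00 to 1.33. In 3 of the 9 genes (rpl20, rps15 and clpP) the albino arrays all lay above the wild-type arrays, and in 2 (rpl33 and matK) all below. Such separation was found for 10.1% of all probe sets with the albino arrays above and 19.8% with them below, 29.9% in all.

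**Figure D1:**
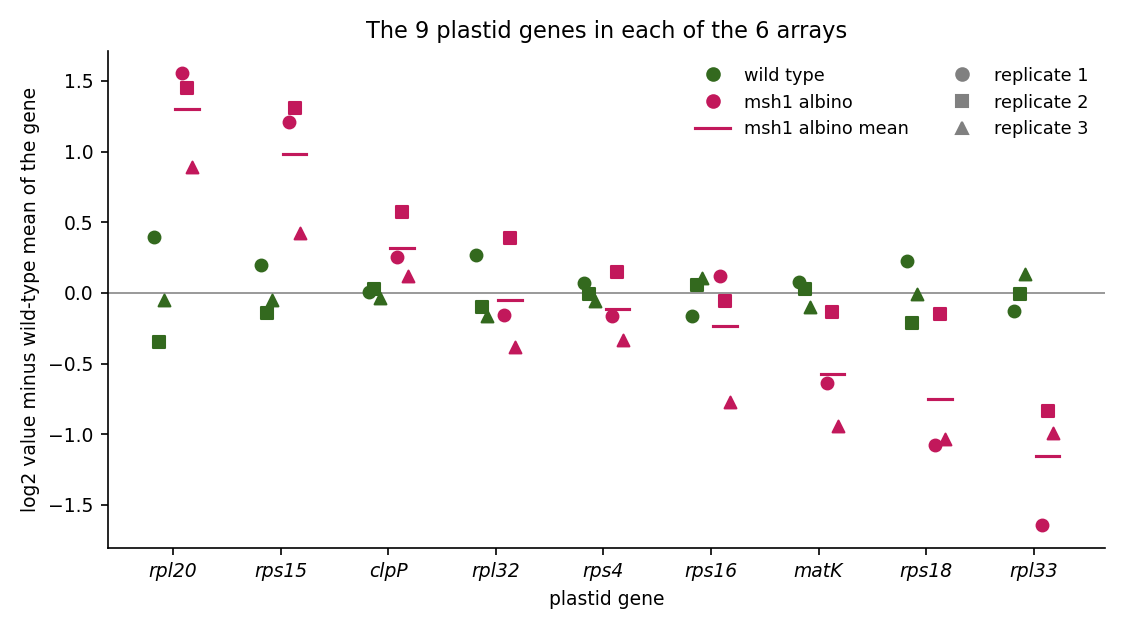
Log2 value of each of the 9 plastid genes in each array, minus the mean of its wild-type arrays (y axis, log2 units), for 3 wild-type and 3 msh1 albino arrays; marker shapes give the replicate number and short lines the albino mean. rpl20, rps15 and clpP lie above the wild-type arrays in all 3 albino arrays and matK and rpl33 below them, and albino replicate 3 (triangles) is the lowest albino array in 7 of the 9 genes.

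The large-subunit gene rpl20 had the largest rise of the 9 genes. rpl20 is essential in tobacco, where plastid genes can be deleted. Its log2 values were 7.61, 6.86 and 7.16 in wild-type replicates 1 to 3 and 8.77, 8.66 and 8.11 in albino replicates 1 to 3. The highest wild-type array lay below the lowest albino array. rpl20 rose by 1.30 ± 0.23 on the log2 scale (SE, limma, n = 3 arrays per group), which is 2.46-fold, with a 95% interval of 0.77 to 1.83 and an adjusted p of 0.0133. Among the 69 plastid genes only rpoC2 had a higher difference in the deposited values. Leaving out wild-type replicate 2 gave 1.12 (adjusted p = 0.0558) and leaving out wild-type replicate 3 gave 1.27 (0.0515), so either omission ended the rpl20 call.

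The small-subunit gene rps15, which tobacco plastids can do without, also rose. It had 8.00, 7.66 and 7.75 in wild type and 9.02, 9.11 and 8.23 in albino tissue (log2 values, replicates 1 to 3). The groups did not overlap, and albino replicate 3 lay closer to the wild-type arrays than the other two. The rise was 0.98 ± 0.23 on the log2 scale, or 1.97-fold (95% interval 0.45 to 1.51, limma adjusted p = 0.0337). This call held without albino replicate 3 (1.26, adjusted p = 0.00614) and was lost when any other array was left out: wild-type replicate 1 (adjusted p = 0.0556), 2 (0.127) or 3 (0.101), or albino replicate 1 (0.0980) or 2 (0.0695).

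rpl33, for a large-subunit protein that tobacco can do without under standard conditions, was the gene that fell. Its log2 values were 11.33, 11.45 and 11.58 in wild type and 9.81, 10.62 and 10.46 in albino tissue. All albino arrays lay below all wild-type arrays, with albino replicate 1 the lowest. The difference was -1.16 ± 0.20, which is 2.23-fold lower (95% interval -1.63 to -0.69, limma adjusted p = 0.0130). Without wild-type replicate 2 or 3 the adjusted p rose to 0.0585 and 0.0523, while the difference stayed at -1.16 and -1.09.

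rps18, a small-subunit gene next to rpl33 on the map, had 11.04, 10.60 and 10.81 in wild type and 9.74, 10.67 and 9.78 in albino tissue. Albino replicate 2 lay inside the wild-type range and the other two below it. The difference of -0.75 ± 0.25 on the log2 scale did not pass (limma adjusted p = 0.101). It passed without albino replicate 2 (-1.06, adjusted p = 0.00769) and with array weights (-0.87, adjusted p = 0.0292).

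matK codes for a maturase that splices introns of several plastid tRNA and protein genes. Its log2 values were 11.65, 11.60 and 11.47 in wild type and 10.93, 11.43 and 10.63 in albino tissue, so that albino replicate 2 lay just below the lowest wild-type array. The difference was -0.57 ± 0.19 (95% interval -1.01 to -0.13), and limma gave an adjusted p of 0.102. It passed without albino replicate 2 (-0.79, adjusted p = 0.0136) and with array weights (-0.61, adjusted p = 0.0324).

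clpP, the protease gene, was nearly constant in wild type, with 12.37, 12.39 and 12.33. It had 12.62, 12.94 and 12.48 in albino tissue, all above wild type. The difference of 0.32 ± 0.13 on the log2 scale (95% interval 0.02 to 0.61) did not pass over all probe sets (limma adjusted p = 0.166). It passed after cyclic loess (0.51, adjusted p = 0.0107) and after quantile normalization was applied again (0.57, adjusted p = 0.00733), so whether clpP is called depended on the scaling.

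For the remaining 3 genes the groups overlapped and the 95% interval of the difference included 0. rps16, a small-subunit gene, had 7.36, 7.58 and 7.62 in wild type and 7.64, 7.46 and 6.74 in albino tissue, a difference of -0.24 with an interval of -0.75 to 0.28. rps4, whose protein helps to start assembly of the small subunit in bacteria, had 12.41, 12.34 and 12.29 against 12.18, 12.49 and 12.01, a difference of -0.12 with an interval of -0.43 to 0.19. rpl32, of the large subunit and essential in tobacco, had 11.00, 10.63 and 10.57 against 10.58, 11.12 and 10.35, a difference of -0.05 with an interval of -0.53 to 0.43. The limma adjusted p was 0.591 for rps16, 0.671 for rps4 and 0.923 for rpl32. The sign of the rps4 and rpl32 differences turned under other scalings.

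**Figure D2:**
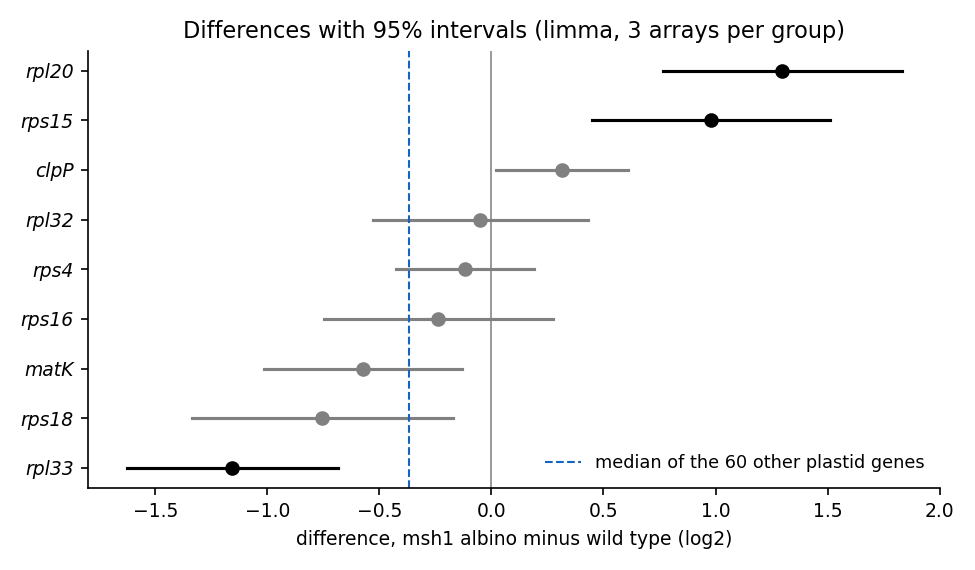
Difference of each of the 9 genes, msh1 albino minus wild type (x axis, log2), with its 95% interval from limma (3 arrays per group); black marks genes that passed and grey those that did not, and the dashed line is the median of the 60 other plastid genes, -0.37. The intervals of rpl20, rps15 and clpP lie to the right of 0 and those of matK, rps18 and rpl33 to the left of it, while those of rpl32, rps4 and rps16 include 0.

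Ordered by their differences, the 9 genes ran from rpl20 through rps15, clpP, rpl32, rps4, rps16, matK and rps18 to rpl33. Each 95% interval overlapped that of the next gene in this order, which is not a test of the difference between them. The interval of rpl20 overlapped that of rps15 alone, and the interval of rps15 those of rpl20 and clpP alone. At the other end, the interval of rpl33 overlapped those of rps18, matK and rps16 and no others.

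The 9 genes varied more among the albino arrays than among the wild-type arrays. The SD was larger in the albino group in 8 of 9 genes, rpl20 being the exception, with a median SD of 0.41 in albino tissue and 0.14 in wild type. For the 60 other plastid genes the SD was larger in the albino group in 53.3%, and for all probe sets in 54.6%. Albino replicate 3 was the lowest albino array in 7 of the 9 genes and albino replicate 2 the highest in 7. The same held for 63.3% and 55.0% of the other plastid genes and for 39.1% and 41.2% of all probe sets. The spiked controls and reference genes of the albino arrays had the same order. The spiked controls averaged 8.70, 9.25 and 8.55 in albino replicates 1 to 3 and 8.96, 8.73 and 8.74 in wild type (log2). The reference genes averaged 10.63, 10.86 and 10.45 in albino tissue and 10.96, 10.87 and 10.70 in wild type. Their part in the spread of the 9 genes was not tested. The counts are descriptions, since the genes share the same arrays and are not independent.

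Along the plastid map, taken from the TAIR10.1 gene table for order only, 4 of the genes lie between the photosynthesis genes psaJ and psbB. Their order is rpl33, rps18, rpl20 and clpP, and a protein-coding gene without a single-gene probe set lies between rpl20 and clpP. As background, rpl33 and rps18 lie on the same strand as psaJ, and rpl20 and clpP on the other. psaJ, a photosystem I subunit named after its values were seen, fell by 1.55 ± 0.24 on the log2 scale (limma adjusted p = 0.00919), next to -1.16 for rpl33 and -0.75 for rps18. For rpl20 the difference was 1.30 and for clpP 0.32. Of these 4 genes rpl33 and rpl20 passed, while rps18 and clpP did not. On the far side of clpP, psbB, for a core antenna protein of photosystem II, fell by 2.83 ± 0.38 (limma adjusted p = 0.00546). Whether strand has a part in these differences was not tested.

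**Figure D3:**
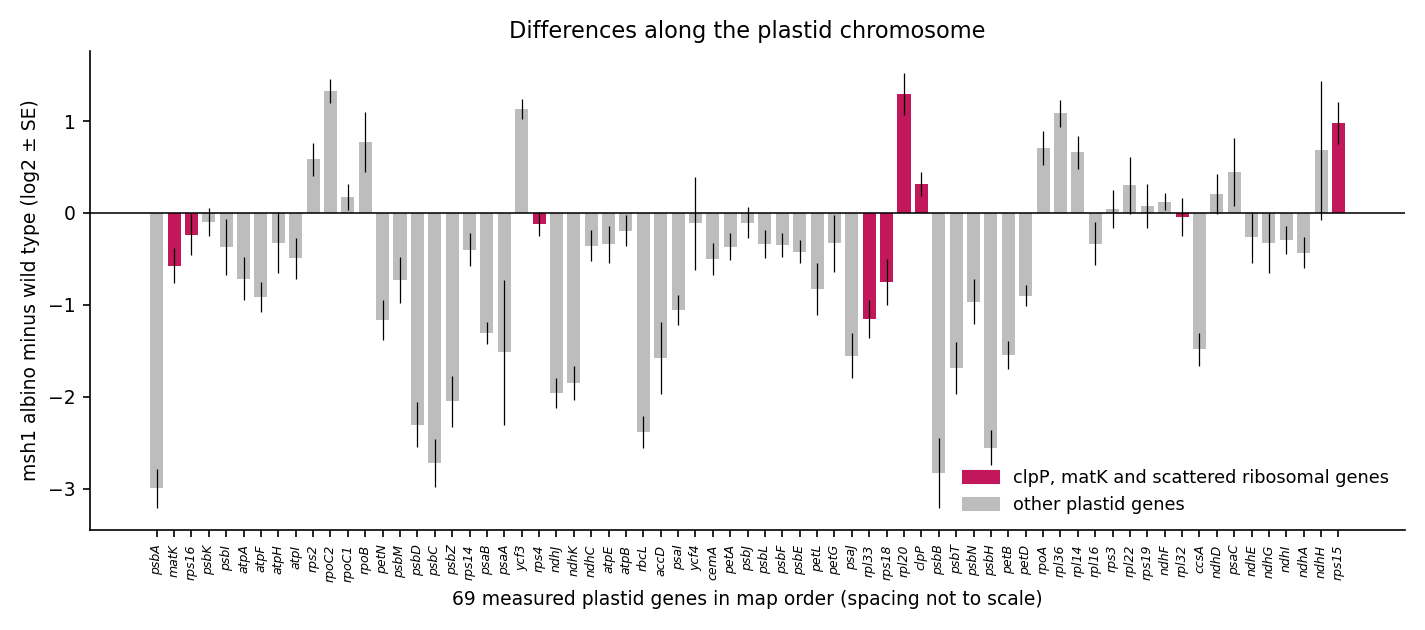
Difference of the 69 measured plastid genes, msh1 albino minus wild type (y axis, log2, bars from 0 with the limma SE), in the order of the plastid map (x axis, spacing not to scale). The 9 genes are in colour; rpl33 and rps18 lie next to psaJ below 0, rpl20 and clpP stand above 0, and psbB, after clpP, is at -2.83.

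To compare neighbours directly, the log2 value of one gene minus that of the next measured gene was taken within each array. It was compared between groups in 9 pairs, with a two-sided exact permutation test. With 3 against 3 arrays the smallest p this test allows is 0.1, so no pair could pass 0.05. After adjustment over the 9 pairs the lowest p of this permutation test was 0.18. In 5 pairs the groups did not overlap, against 47.1% of all 68 pairs of adjacent measured plastid genes. The median size of the difference over those 68 pairs was 0.51.

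The 5 pairs without overlap each had an exact permutation p = 0.1. clpP minus psbB was 5.74, 4.01 and 4.67 in wild type and 8.01, 8.32 and 7.53 in albino tissue, so the change of clpP exceeded that of psbB by 3.15, the largest value of the 68 pairs. matK minus psbA was -0.92, -0.20 and -0.37 in wild type and 1.70, 2.34 and 1.74 in albino tissue, a difference in change of 2.43. psbA codes for the D1 protein of photosystem II and fell by 3.00 ± 0.21. rpl20 minus rps18 was -3.43, -3.74 and -3.65 in wild type and -0.97, -2.01 and -1.68 in albino tissue, a difference in change of 2.05.

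In the other two the neighbour rose. rps4 minus ycf3 was 4.43, 4.46 and 4.19 in wild type and 2.92, 3.49 and 2.92 in albino tissue, a difference in change of -1.25. ycf3 is an assembly factor of photosystem I and rose by 1.13 ± 0.11. clpP minus rpl20 was 4.76, 5.53 and 5.17 in wild type and 3.85, 4.27 and 4.38 in albino tissue, a difference in change of -0.98.

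In the other pairs the groups overlapped. rps18 minus rpl33 was -0.29, -0.84 and -0.78 in wild type and -0.07, 0.05 and -0.68 in albino tissue, a difference in change of 0.40 (exact permutation p = 0.2). rpl32 with ndhF and rps16 with psbK differed in change by -0.17 and -0.14 (exact permutation p = 0.6 and 0.7). ndhF, a subunit of the NADH dehydrogenase-like complex, lay between 3.30 and 3.60 in all arrays, a low level at which a change may not show. rps15 minus ndhH, a subunit of the same complex, was 2.22, -1.15 and -1.19 in wild type and 0.60, 0.81 and -0.64 in albino tissue (difference in change 0.30, exact permutation p = 0.8). Wild-type replicate 1 stood apart there, since ndhH was 5.78 in it and 8.81 and 8.94 in the other wild-type arrays, and without it the difference in change was 1.43.

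The 9 pairs took mostly 1 neighbour for each gene, out of 13 adjacent measured pairs that hold any of the 9 genes. The other 4, added after their values were seen, had sizes of 1.84 for rps4 with ndhJ and 1.43 for rpl32 with ccsA, where the groups did not overlap, and 0.34 for matK with rps16 and 0.40 for psaJ with rpl33, where they did. ndhJ, a subunit of the NADH dehydrogenase-like complex, fell by 1.96 ± 0.16, and ccsA, for cytochrome c assembly, fell by 1.48 ± 0.18 on the log2 scale.

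**Figure D4:**
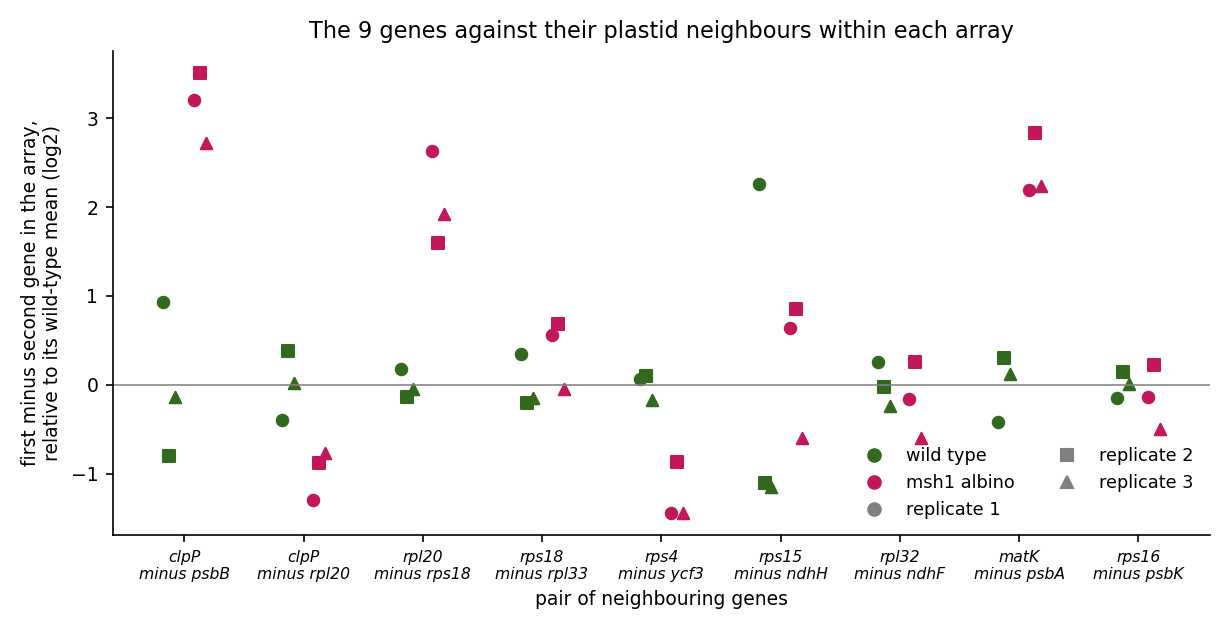
For 9 pairs of neighbouring measured plastid genes, the log2 value of the first gene minus that of the second within each array, relative to the mean of the wild-type arrays for that pair (y axis, log2). Colours give the group and marker shapes the replicate number. The albino arrays stand apart from the wild-type arrays for clpP with psbB, clpP with rpl20, rpl20 with rps18, rps4 with ycf3 and matK with psbA.

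Of 14 other plastid ribosomal protein genes 8 were measured. 1 of them rose, rpl36 (1.08 ± 0.15, limma adjusted p = 0.00585), 7 did not pass and 0 fell (0 fell at an unadjusted p of 0.05), with a median of 0.19 and a range of -0.40 to 1.08. The count that rose was 3 without albino replicate 3, under 4 of 5 alternative scalings and with array weights, and 2 with either filter on dim probe sets or the variance trend.

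All 4 plastid polymerase genes were measured, with a median of 0.74. rpoC2 (1.33 ± 0.13, limma adjusted p = 0.00208) and rpoA (0.70 ± 0.18, limma adjusted p = 0.0493) rose and rpoB and rpoC1 did not pass. rpoA no longer passed once wild-type replicate 2 (adjusted p = 0.171) or 3 (0.139), or albino replicate 1 (0.131) or 2 (0.102), was left out.

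None of the measured nuclear partners of these genes rose. Of 15 listed nuclear genes of the Clp protease 6 were measured, and 2 fell, against 7.44% of all probe sets called lower. AT1G68660, for the adaptor CLPS1, had 10.25, 10.18 and 10.08 in wild type and 9.35, 9.22 and 9.14 in albino tissue, a fall of 0.94 ± 0.10 on the log2 scale (limma adjusted p = 0.00243). AT2G03390, for the adaptor CLPF, had 9.66, 9.73 and 9.70 in wild type and 9.07, 9.03 and 8.91 in albino tissue and fell by 0.69 ± 0.09 (limma adjusted p = 0.00489). A second probe set of the latter gave -0.63 ± 0.12. For the first probe set of AT2G03390 the call was lost when arrays were aligned on the reference genes (limma adjusted p = 0.112) or the spiked controls (0.123). The 4 others were CLPP4 of the proteolytic core, AT1G09130 (CLPR3), AT4G25370 (CLPT1) and AT4G12060 (CLPT2). They differed by -0.17 to 0.01 and did not pass. Other listed genes, such as CLPP3, CLPP5 and CLPP6, had no probe set annotated to them alone. Adaptors and core subunits were not compared.

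Of 33 listed nuclear genes for plastid ribosomal proteins 9 were measured. Their differences were all below 0 in the deposited values, from -0.38 to -0.07 with a median of -0.31, and only AT3G13120, for protein S10, fell (-0.37 ± 0.09, limma adjusted p = 0.0441). None rose, also at an unadjusted p of 0.05. AT3G13120 no longer passed when any array was left out (adjusted p = 0.0597 to 0.146), nor under any of the 5 alternative scalings (0.141 to 0.778). Of 16 nuclear genes for plastid transcription and RNA processing 2 were measured. AT5G15700, a phage-type polymerase of mitochondria and plastids, differed by 0.22 ± 0.10, and CAF1, a plastid splicing factor, by -0.22 ± 0.12. By limma 0 of the 2 passed, also at an unadjusted p of 0.05.

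For the 3 genes that passed, the most similar patterns among 13504 other single-gene probe sets were found by the root mean square difference over the 6 arrays, each gene centred on its own mean. For rpl33 these were AT1G62290 (0.17 log2 units), AT1G19540 (0.17) and AT5G50915 (0.20). For rpl20 they were AT4G13180 (0.16), AT2G07707 (0.16) and BHLH101 (0.18), and for rps15 AT3G03270 (0.10), AT5G26280 (0.11) and AT5G51830 (0.13). All of these are nuclear loci by the gene table, but AT2G07707 lies on chromosome 2, which carries a copy of mitochondrial DNA, and its probe set shares sequence with other transcripts by its name, so its signal may not be that of the nuclear locus.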

How the data were processed

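Transcripts were measured on Affymetrix arrays, 3 per group. The deposited values are log2 values per probe set, made by the authors with RMA in the affy package, per the submitters' processing notes; for its version, its settings or a genome build, none is stated in the labels. Per the labels' protocols, RNA of each plant was labelled as biotinylated cRNA. Values were used as deposited.

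Probe sets were named from the platform annotation and the TAIR10.1 gene table: 13513 had a single gene, 503 several and 8730 none. The 64 array controls were left out. limma 3.58.1 in R 4.3.3 (lmFit, eBayes, two-sided) compared the groups over 22746 probe sets, of which 5835 had an unadjusted p under 0.05, and was tested on simulated data. The number of arrays limits precision (median SE 0.118). The labels state no pairing of the arrays. Deviations of same-numbered arrays correlated at 0.01, -0.34 and -0.02, and those of different-numbered arrays at -0.27 to 0.35. These values cannot settle whether the arrays were paired.

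The genes, lists and neighbour pairs were chosen with earlier results of these data known. Named were all 9 genes, neighbours, up to 4 passing genes per list (or 2 where none passed) and 3 similar genes per passing gene. The measured Clp genes that did not pass were named as well. Alternatives were 5 scalings, 2 filters on dim probe sets, a variance trend, array weights, a replicate block, dropping probe sets that share sequence, and leaving out each array. Alignment used 18 spiked-control probe sets or 2 measured reference genes.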

Additional observations from a re-analysis of the deposited data

How the results depend on the processing

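With 1 array left out, 0 to 4 of the 9 genes were called (3 with all arrays), and 0 without wild-type replicate 2 or 3, where 5 passed an unadjusted p of 0.05 in limma. Array weights gave 5. The other 10 alternatives gave 3, or 4 after cyclic loess or quantile normalization. All probe sets gave 2547 calls, 1153 on spiked controls, 1485 with the replicate block and 851 to 2109 without 1 array. The replicate block kept 3 calls among the 9 genes, but the samples share only a number. By deviations from the group means, no array correlated best with the array of its own number in the other group.

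Other plastid ribosomal genes had 3 calls on the 75th percentile, cyclic loess, quantile, reference-gene and array-weight settings, 2 with either filter or the variance trend, and 1 to 3 without 1 array. Polymerase genes had 3 calls with the reference genes aligned, 1 on spiked controls and with the replicate block, and 1 to 2 without 1 array. Nuclear Clp genes had 1 on spiked controls or reference genes, and 2 without any 1 array. Nuclear plastid ribosomal genes had 0 under all 5 scalings, the 25th percentile filter, the variance trend and the replicate block, 3 with array weights, and 0 to 1 without 1 array.

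Differences that turned sign did not pass in either direction. For rps4 cyclic loess gave 0.070, quantile normalization 0.11 and the reference genes 0.081. For rpl32 those 3 settings gave 0.10, 0.084 and 0.15, the 75th percentile 0.033, and leaving out 1 array -0.27 to 0.12 (above 0 without wild-type replicate 1 or albino replicate 1 or 3). For psbK the same 3 settings gave 0.038, 0.015 and 0.099, and array weights 0.059. Leaving out 1 array gave -0.42 to 0.032 for rps16 (above 0 without albino replicate 3) and -0.35 to 1.23 for ndhH (below 0 without wild-type replicate 1). Between neighbours it gave -0.28 to 1.43 for rps15 with ndhH (below 0 without wild-type replicate 2 or 3), and -0.39 to 0.043 for rpl32 with ndhF and -0.32 to 0.042 for rps16 with psbK (both above 0 without albino replicate 3). The cause was not tested. Each gene has 1 probe set, so averaging several was not run.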
